A study of Homo sapiens with 2 samples.

Results

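The genes described here are 10 genes of the feedback and output of mitogen-activated protein kinase (MAPK) signalling. The feedback genes are the phosphatases DUSP1, DUSP4, DUSP5 and DUSP6, the Sprouty genes SPRY1, SPRY2 and SPRY4 and the Spred gene SPRED1. The output genes are the transcription factors ETV4 and ETV5. Each of the 10 was represented by every probe set of the array whose annotation names it and no other gene. This gave 24 probe sets for all 10 genes, of 19775 genes measured in all. RNA came from FaDu cells, a squamous carcinoma line of the pharynx, either stably expressing GLUT4, the insulin-responsive glucose transporter, or stably carrying the control vector. Both populations were transduced with lentivirus and selected with puromycin, and the methods call them stable clones without saying whether several were combined. Each gave 1 Affymetrix Human Genome U133 Plus 2.0 array, so nothing here was tested and no replicate checks a value. Any other way in which the populations differ is part of each difference and cannot be told apart from GLUT4.

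In the MAPK cascade a growth factor receptor activates RAS, which activates the kinases RAF, MEK and ERK in turn. Active ERK enters the nucleus and raises the transcription of immediate early genes and, with them, of its own brakes. Dual-specificity phosphatases (DUSP) remove the activating phosphates from ERK, p38 and JNK, Sprouty and Spred proteins act further up between receptor and RAF, and the PEA3 factors ETV4 and ETV5 are ETS-family activators whose genes are induced through ERK. For this reason the mRNA levels of these genes are widely used as a readout of ERK output in carcinoma cells.

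The promoters of the gene with the largest difference, SPRY2, and of the early response gene DUSP1 are shown to set the regulatory sequence beside the values. They come from NCBI RefSeq, build GRCh38.p14, each running 250 bases before to 50 bases after a transcription start, and capitals mark the motifs described next.
SPRY2, most upstream of its 3 starts, chr13:80341077-80341376, minus strand: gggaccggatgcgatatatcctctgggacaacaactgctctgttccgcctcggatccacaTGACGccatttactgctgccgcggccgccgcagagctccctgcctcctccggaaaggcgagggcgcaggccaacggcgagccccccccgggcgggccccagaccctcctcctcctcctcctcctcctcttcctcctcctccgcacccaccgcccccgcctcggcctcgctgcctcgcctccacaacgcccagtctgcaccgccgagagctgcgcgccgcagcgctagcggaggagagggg
DUSP1, chr5:172771146-172771445, minus strand: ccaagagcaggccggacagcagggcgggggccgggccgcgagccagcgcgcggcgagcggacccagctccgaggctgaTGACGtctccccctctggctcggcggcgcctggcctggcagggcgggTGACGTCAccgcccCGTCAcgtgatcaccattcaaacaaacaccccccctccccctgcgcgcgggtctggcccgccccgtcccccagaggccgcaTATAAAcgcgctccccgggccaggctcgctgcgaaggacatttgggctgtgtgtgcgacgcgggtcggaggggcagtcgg
Both strands of every promoter window were searched for the cAMP response element TGACGTCA, its core TGACG, the AP-1 site TGANTCA, the ETS site CCGGAAG, the TATA box TATAAA, the GC box GGGCGG and the CArG box that serum response factor binds. Of the 10 genes, 6 matched the table (DUSP1, DUSP6, SPRY1, SPRY2, SPRY4 and SPRED1), with 9 windows between them. The DUSP1 window holds 1 full cAMP response element, which 1.85% of all 35116 promoter windows hold, and further copies of the core, some of which overlap it. It also holds a TATA box, found in 11.5% of all windows and in none of the other 8. The SPRY2 window shown holds 1 copy of the core, as does the SPRY4 window, and 24.6% of all windows hold one. The ETS site was found in 1 SPRY1 window, against 10.3% of all windows, and the GC box, which is not in capitals, in 6 of the 9 against 45.0%. No AP-1 site or CArG box was found in these windows, which says only that those letters are not there. A match is a description and not a binding site.

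Intensities below are in the arbitrary linear units of the deposited table, and each difference is on the log2 scale, GLUT4 minus vector. Of several probe sets of a gene, the brightest over both arrays is called the main one, and 1.5-fold is the threshold of the study's methods. As the one measure of spread, the differences of both brightest probe sets of a gene were compared over 10523 genes. This gave an SD of 0.20 for a single probe set. It was 0.16, 0.23 and 0.21 when the genes were split into 3 equal classes of bright, middle and dim signal. This SD does not cover variation between cultures, nor any error that the probe sets of a gene share on an array. It is not technical error alone, since probe sets of a gene that detect separate transcripts can truly differ. Of the 24 probe sets, 22 lay above 39.3, the median signal of all probe sets.

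SPRY2 was the 1 gene of the 10 to pass 1.5-fold, and it was higher in the GLUT4-expressing cells. No gene of the 10 was more than 1.5-fold lower. The background over all 19775 genes was 1.84% past 1.5-fold on the higher side and 1.54% on the lower side. Past 2-fold, 0 of the 10 were higher, against 0.42% of all genes. The median difference of the 10 genes was 0.00, against -0.02 over all genes, with 5 genes above 0 and 5 below. Over all genes, 9452 were above 0 and 10322 below. Over probe sets, 1 of 24 was more than 1.5-fold higher (2.04% of all probe sets) and 0 were more than 1.5-fold lower (1.22% of all). Differences under 1 SD of a single probe set made up 66.7% of the 24 and 67.2% of all 54675 probe sets, and differences over 2 SD made up 3 of the 24 (12.5%) and 8.51% of all.

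**Figure D1:**
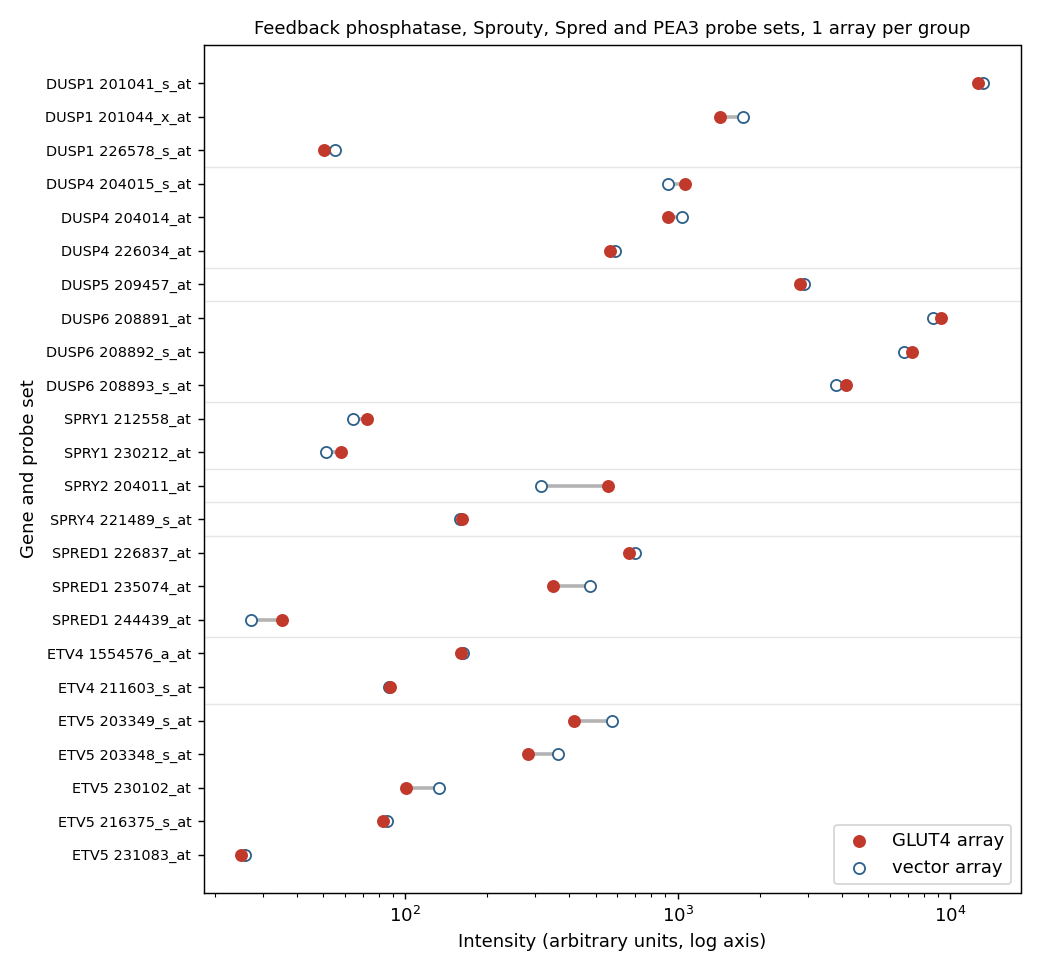
Intensity of each of the 24 probe sets (log axis, arbitrary units) on the GLUT4 array (filled) and on the vector array (open), with probe sets of a gene in order of signal. The widest gap on the higher side is at SPRY2, 554 against 314, and the 5 ETV5 probe sets all have the GLUT4 array on the left.

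The phosphatases were close to equal on both arrays. DUSP1 is an immediate early gene whose nuclear product acts on p38, JNK and ERK. Its main probe set (201041_s_at) read 12619.6 in GLUT4-expressing cells and 13241 in vector control cells, a difference of -0.07. Its second probe set read 1428 in GLUT4-expressing cells and 1731 in vector control cells (-0.28), and the third read 50.4 with GLUT4 and 55.2 with vector (-0.13). All 3 DUSP1 differences were below 0 and within 1.5-fold, the largest of them 1.69 times the SD of a single probe set of that signal.

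DUSP6, the cytoplasmic phosphatase that is selective for ERK, had the most uniform probe sets of the phosphatases. They read 9277, 7233 and 4141 in GLUT4-expressing cells, against 8639.8, 6797 and 3804 in vector control cells. The differences of 0.10, 0.09 and 0.12 spanned 0.03, all above 0 and all under 1 SD of a single probe set. DUSP5, a nuclear phosphatase also selective for ERK, has 1 probe set, which read 2803 in GLUT4-expressing cells and 2916 in vector control cells (-0.06).

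The probe sets of DUSP4, a nuclear phosphatase of ERK and JNK, did not share a direction. The main one (204015_s_at) read 1065 in GLUT4-expressing cells and 925 in vector control cells, a difference of 0.20. The other pair read 925 and 565 in GLUT4-expressing cells, against 1039 and 589 in vector control cells, with differences of -0.17 and -0.06. The mean over the 3 was -0.01, so the sign at DUSP4 depends on the probe set taken. The 4 phosphatases had a median of 0.02, and none passed 1.5-fold on any probe set.

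**Figure D2:**
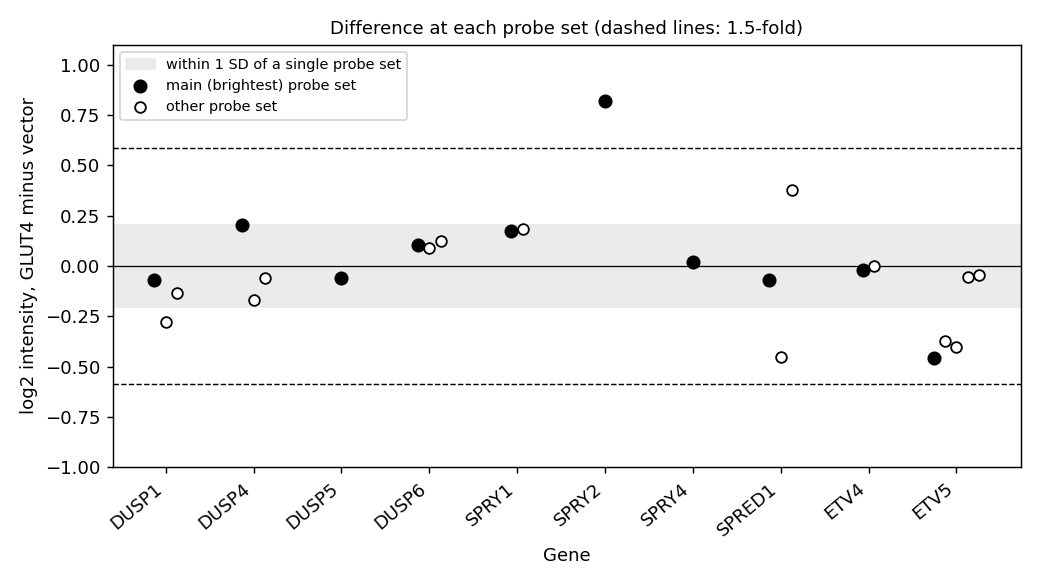
The log2 difference in intensity, GLUT4 minus vector (vertical axis), at every probe set of the 10 genes, with the main probe set filled, the band showing 1 SD of a single probe set over all signals (0.20) and dashed lines at 1.5-fold. The SPRY2 point at 0.82 lies past a dashed line. The points of DUSP4, SPRED1 and ETV4 lie on both sides of 0, those of ETV4 at -0.02 and 0.00.

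Sprouty proteins are membrane-associated inhibitors of the step between receptor and RAF. SPRY2 also binds the ubiquitin ligase CBL. Its single probe set (204011_at) read 554 in GLUT4-expressing cells and 314 in vector control cells, 1.76-fold higher, a difference of 0.82. This is 4.98 times the SD of a single probe set in the bright class. From the most raised gene down, SPRY2 stood at rank 149 of 19775, and by size of the difference in either direction at rank 260. With 1 probe set, no other measurement of the same transcript on these arrays stands beside it.

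The other Sprouty genes did not pass 1.5-fold. SPRY1 read 72.4 and 58.1 on its pair of probe sets in GLUT4-expressing cells, against 64.2 and 51.1 in vector control cells. The differences of 0.17 and 0.19 lay within 0.01 of each other and under 1 SD of a single probe set. SPRY4 read 161 in GLUT4-expressing cells and 159 in vector control cells (0.02). The difference of SPRY2 was therefore larger than that of SPRY1 by 0.64 and than that of SPRY4 by 0.80, which for probe sets of separate genes is a description with no test.

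SPRED1 recruits neurofibromin, which switches RAS off, to the membrane. Its probe sets diverged more than those of any other of the 7 genes with at least a pair, by 0.83. The main one (226837_at) read 664 in GLUT4-expressing cells and 696 in vector control cells (-0.07). The second (235074_at) read 348 in GLUT4-expressing cells and 475 in vector control cells (-0.45), which is 2.74 times the SD at that signal. The third, below the median signal, read 35.2 in GLUT4-expressing cells and 27.1 in vector control cells (0.38, and 0.19 once an offset of 32 that damps differences at low signal was added). Averaged, SPRED1 came to -0.05.

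Of the PEA3 factors, ETV5 was lower in GLUT4-expressing cells at all 5 of its probe sets without passing 1.5-fold at any. The main probe set (203349_s_at) read 418 in GLUT4-expressing cells and 574 in vector control cells, 1.37-fold lower (-0.46), 2.79 times the SD at that signal. The next read 282 in GLUT4-expressing cells and 365 in vector control cells (-0.37), and the one after it 101 with GLUT4 and 133 with vector (-0.40). The last pair differed little, at 82.6 in GLUT4-expressing cells and 85.7 in vector control cells (-0.05), and at 25.0 with GLUT4 and 25.8 with vector (-0.05). ETV5 stood at rank 618 from the most lowered gene, and its mean over all 5 probe sets was -0.27.

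ETV4 was level. It read 160.3 in GLUT4-expressing cells and 162 in vector control cells on its main probe set (-0.02), and 87.6 with GLUT4 and 87.5 with vector on the other (0.00). The ETV5 and ETV4 main probe sets thus differed from each other by 0.44.

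**Figure D3:**
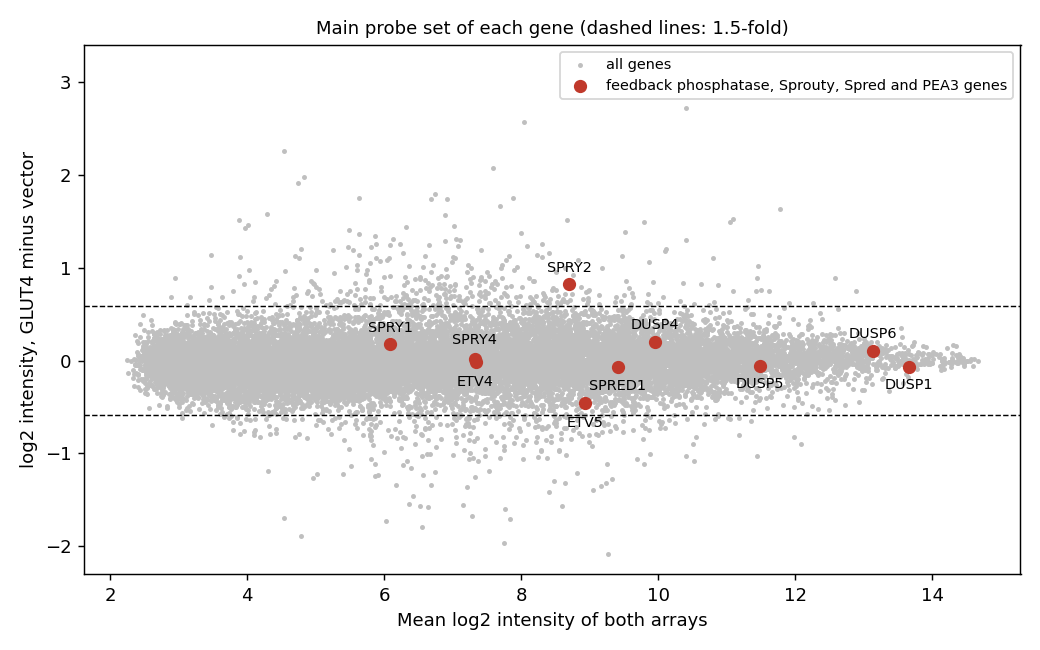
The log2 difference, GLUT4 minus vector (vertical axis), against the mean log2 intensity over the pair of arrays (horizontal axis), for the main probe set of 19775 genes (grey) and of the 10 genes (red), with dashed lines at 1.5-fold. SPRY2 lies above the upper dashed line, and ETV5 is the lowest of the red points at -0.46.

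The other genes of the pathway were described from 8 lists of 74 genes, of which 63 were measured, and the others were not analysed here. Of the 63, 3 were higher and 1 lower past 1.5-fold, with a median of -0.03, against 1.84% of all genes higher and 1.54% lower, and the counts in the single lists are read against the same shares. Of the 6 remaining MAPK phosphatases 1 was higher. DUSP2, a nuclear phosphatase of ERK and p38 known best from leukocytes, read 563 in GLUT4-expressing cells and 283 in vector control cells on its single probe set, 1.99-fold higher (0.99), at rank 86 from the most raised gene. The other 5 lay between -0.12 and 0.22, among them DUSP10, a phosphatase of p38 and JNK, which read 1504 in GLUT4-expressing cells and 1288 in vector control cells.

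All 4 of the remaining Sprouty, Spred and PEA3 genes (SPRY3, SPRED2, SPRED3 and ETV1) were below 0 on their main probe sets and within 1.5-fold, with a median of -0.34. Of all 19775 genes, 10322 were below 0. SPRY3 was below the median signal of the arrays, and the median of the 4 was -0.19 with 32 added to every intensity and -0.20 over the averages of their probe sets. ETV1, the third PEA3 factor, read 142 in GLUT4-expressing cells and 195 in vector control cells on its main probe set (-0.46). Its 5 probe sets lay between -0.58 and -0.06, all below 0. The one at -0.58 was the dimmest and below the median signal, at 14.8 with GLUT4 and 22.2 with vector. At main probe sets the PEA3 factors thus stood at -0.46 for ETV5, -0.46 for ETV1 and -0.02 for ETV4.

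Of the upstream genes, none of 8 growth factor receptors passed 1.5-fold, with a median of 0.05. Of 6 ligands measured, FGF2, a fibroblast growth factor, was lower at 137 in GLUT4-expressing cells and 205 in vector control cells (-0.59), and at 121 with GLUT4 and 202 with vector on its other probe set (-0.74). None of 11 genes of the RAS-ERK cascade passed 1.5-fold on its main probe set. The nearest were SOS1 and SOS2, the exchange factors that load RAS with GTP, at -0.58 and -0.53 on their main probe sets, and SOS1 passed 1.5-fold at -0.60 under quantile normalization and under loess. The other 4 SOS1 probe sets, all dimmer, lay between -0.15 and 0.07. KSR1, a scaffold of the cascade, was at 0.07 on its main probe set. Of its dimmer probe sets, 1 read 32.7 in GLUT4-expressing cells and 58.3 in vector control cells (-0.83). Another went the other way, at 33.4 with GLUT4 and 25.0 with vector (0.42), and the remaining one was at 0.05. Of 7 further brakes on RAS and receptors none passed 1.5-fold, with a median of -0.11.

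Of 8 kinases of the p38 and JNK branches, MAPK12, a p38 kinase, was higher on its main probe set, at 157 in GLUT4-expressing cells and 98.5 in vector control cells (0.67). Its other probe sets were at 0.13 and -0.01. MAPK13, another p38 kinase, read 662 in GLUT4-expressing cells and 935 in vector control cells on its main probe set (-0.50). Its other probe set was also at -0.50, and both were within 1.5-fold. Of 13 other transcripts that ERK induces, LIF, a cytokine of the interleukin 6 family, was more than 1.5-fold higher, at 248 in GLUT4-expressing cells and 165 in vector control cells (0.59). The other 12 were within 1.5-fold, and the 13 had a median of -0.02. With the 10 genes described first added there were 23 transcripts, and ERK activity itself was not measured. Of the 23, 2 (SPRY2 and LIF, both given above) were higher and 0 lower past 1.5-fold. The shares over all genes were 1.84% higher and 1.54% lower. Of the 23, 11 were above 0 and 12 below 0, against 9452 and 10322 of all 19775 genes.

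**Figure D4:**
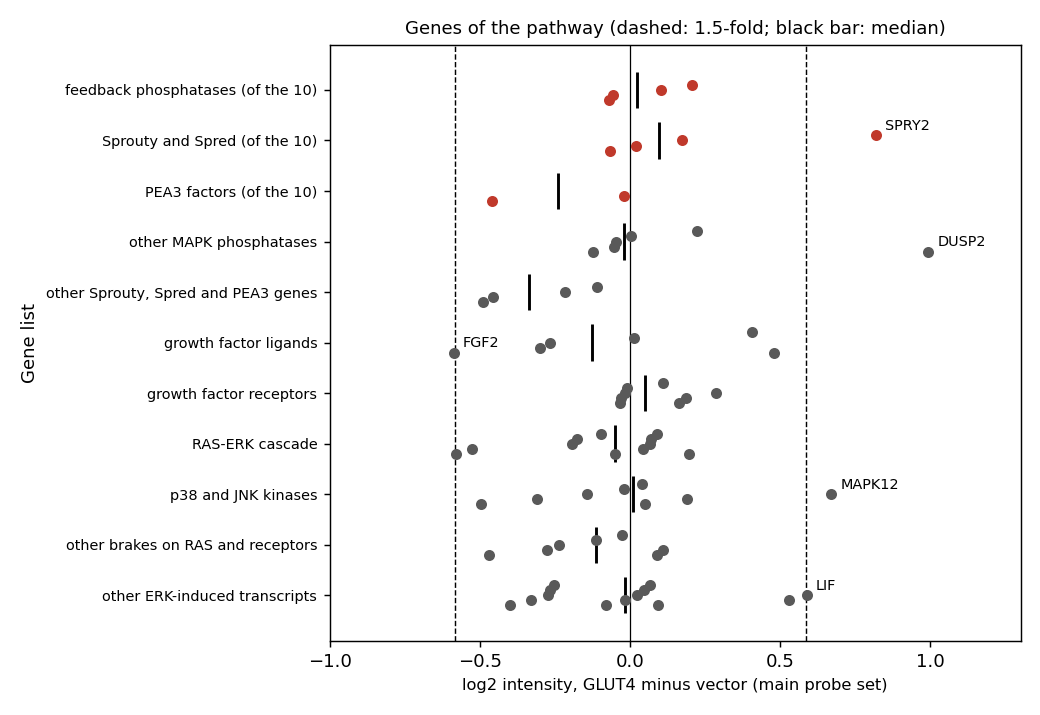
The log2 difference in intensity, GLUT4 minus vector (horizontal axis), at the main probe set of each of the 10 genes (red, in 3 families) and of 63 other genes of the pathway (grey, in 8 lists), with a black bar at the median of each list and dashed lines at 1.5-fold. SPRY2, DUSP2, MAPK12 and LIF lie past the upper line, and FGF2 past the lower one.

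The arrays themselves had medians of 39.1 for GLUT4 and 39.7 for vector, with the same maximum. SLC2A4, the GLUT4 gene, read 32.6 on the GLUT4 array and 28.3 on the vector array, both below the median signal. Whether its probes detect the introduced sequence was not tested, so this reading checks no label. All 5 measured squamous epithelial markers were above the median signal on these arrays. KRT14, a basal keratin, read 3985 with GLUT4 and 1963 with vector, and EPCAM, an epithelial adhesion molecule, 3021 with GLUT4 and 5361 with vector. Of 5 fibroblast markers, 4 were above the median signal. DCN and LUM, both proteoglycans, were higher with GLUT4, by 0.20 to 1.29 and by 0.32 to 1.05 over their probe sets. The other fibroblast markers COL1A1, COL1A2 and PDGFRB differed by 0.01, 0.16 and 0.20 on their main probe sets. Over all their probe sets COL1A1 spanned -0.12 to 1.07 and COL1A2 0.01 to 0.16, and PDGFRB has 1. The summed intensity of the list was 1441 with GLUT4 and 819 with vector, most of it from DCN, at 1050 with GLUT4 and 482 with vector. Of 4 leukocyte markers none was above the median signal, and of 3 endothelial markers 2 were, PECAM1 and VWF. On main probe sets PECAM1 read 48.2 with GLUT4 and 141 with vector (-1.55), CDH5 was at -0.17 and VWF at 0.19. The 5 PECAM1 probe sets spanned -1.55 to -0.11. The part of these marker differences in the results above was not tested, and fewer cells with a transcript and less of it per cell cannot be told apart in bulk RNA.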

How the data were processed

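Total RNA of GLUT4-expressing and of vector control FaDu cells was hybridized to 1 Affymetrix Human Genome U133 Plus 2.0 chip each. The authors used GeneSpring for normalization and a log2 transformation, and the submitters' processing notes name MAS5. For the order of these steps and the versions, nothing is given in the sources used. The deposited values are intensities on a linear scale, whose ranked log2 values differ between the arrays by a median of 0.02, so they were already normalized. No detection calls were used.

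Intensities were floored at 1, turned to log2 and subtracted (GLUT4 minus vector). The platform annotation pairs 41097 of the 54675 probe sets with 1 gene and 1801 with several, and 11777 are unnamed here. The 1801 were not used for single genes, and none of them names any of the 10 genes. Each gene was taken at the probe set with the highest mean. The members and lists were chosen with earlier results of these data known. The rule for naming took all 10 genes and up to 4 genes past 1.5-fold of each list. DUSP10, SOS1, SOS2, KSR1, MAPK13, ETV1, SPRY3, SPRED2, SPRED3, the markers given by name, DUSP5P1, SPRY4-IT1 and EGR1 were named after their values were seen. With 1 array per group, precision is limited by that number. The differences, the counts past 1.5-fold and the SD between probe sets were tested on simulated data. The simulation took its SD from these data and gave every probe set of a changed gene the same change. It therefore checks the calculation only and says nothing on the error of these arrays. Alternatives were equal array medians, quantile normalization, loess (fraction 0.3), addition of 32 to every value, restriction to probe sets above the median signal, removal of probe sets ending in x_at or s_at, averages over probe sets and a 2-fold threshold. Tools used: pandas 2.3.3, numpy 2.4.6, statsmodels 0.14.6 and matplotlib 3.10.9 under Python 3.11.15.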

Additional observations from a re-analysis of the deposited data

How the results depend on the processing

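SPRY2 was more than 1.5-fold higher under equal array medians, quantile normalization, loess, the offset of 32, the filter at the median signal, the removal of x_at and s_at probe sets and the averaging of probe sets, with differences between 0.76 and 0.84. Past 2-fold, 0 of the 10 genes were higher, against 0.42% of all genes at their main probe set. Of their 24 probe sets 0 were, and the share over all probe sets is not given here. The difference of DUSP4 was -0.17 without x_at and s_at probe sets and -0.01 averaged over its probe sets, in place of 0.20. ETV5 lay between -0.48 and -0.27. Of the 63 other genes, 1 was more than 1.5-fold higher with the offset of 32 and 0 were more than 2-fold higher, in place of 3. Of all 19775 genes, 205 were more than 1.5-fold higher with that offset and 83 were more than 2-fold higher, in place of 363. Of the 63, in place of 1 lower past 1.5-fold, there were 0 with equal array medians and 2 with quantile normalization. There were 2 with loess, 0 with the offset of 32 and 0 past 2-fold. Over all genes the lower counts were 277, 321, 304, 168 and 62 in that order, in place of 304. Without x_at and s_at probe sets 0 of the 52 genes still measured were lower, against 272 of all 17100. FGF2, whose probe sets are all of that kind, was not among the 52. MAPK12 averaged 0.26 over its probe sets, within 1.5-fold. LIF came within 1.5-fold under quantile normalization, loess and the offset of 32, and FGF2 under equal array medians and the offset of 32, as did MAPK12 with that offset. The cause was not tested. No paired analysis was possible because each group has 1 array.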

Other observations

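A pair of transcripts annotated beside these genes were looked at after their values were seen. DUSP5P1, annotated as a pseudogene related to DUSP5, read 207 in GLUT4-expressing cells and 88.2 in vector control cells, 2.34-fold higher (1.23), while the DUSP5 probe set was at -0.06. Whether probes of both detect the same RNA was not tested. SPRY4-IT1, a noncoding transcript of the SPRY4 locus, read 73.4 in GLUT4-expressing cells and 50.2 in vector control cells on its brighter probe set (0.55) and 24.4 with GLUT4 and 23.2 with vector on the dimmer one (0.07), both within 1.5-fold, beside 0.02 at SPRY4 itself. EGR1, an immediate early transcription factor, was within 1.5-fold on its main probe set (-0.33) and past it on another, at 1718 in GLUT4-expressing cells and 2674 in vector control cells (-0.64).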
